A study of Drosophila melanogaster with 18 samples.

Results

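The 8 genes described here rose strongly in mRNA with DTT in Drosophila Schneider 2 (S2) cells, out of 6979 genes that could be named on the arrays. They are ImpL2 (probe '15009'), CG3348 (probe '3348'), Ptp52F (probe '18243'), CenG1A (probe '31811'), Dgp-1 (probe '5729'), Picot (probe '8098'), Cyp6a20 (probe '10245') and CG6330 (probe '6330'). All 8 probes were found. The genes were chosen on their DTT effects with and without RNAi, so these effects and their differences are given below as a description and not as a test. The choice was made by name, with no stated threshold: in control cells the 8 effects ranked between 4 (Cyp6a20) and 72.5 (ImpL2) among 5935 probes. S2 cells are an established embryonic line with blood cell features. RNA was measured on 18 arrays with 2 channels, 3 in each of 6 groups. Control cells received no double-stranded RNA; the other cells received about 15 µg/ml of double-stranded RNA against XBP-1 (CG9415) or IRE1 (CG4583) in repeated rounds. Each of the 3 arms was sampled in both states, untreated and given 2 mM DTT for 7.4 hours. An effect of double-stranded RNA as such cannot be told apart from an effect of its target, because no array carries cells given an unrelated double-stranded RNA.

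As background, DTT is a reducing agent that keeps disulphide bonds from forming, so that secreted and membrane proteins misfold in the endoplasmic reticulum. The unfolded protein response then sets in. In its IRE1 branch the membrane kinase and nuclease IRE1 cuts an intron from XBP-1 mRNA, which then encodes an active transcription factor. A further sensor, PERK, acts through translation and ATF4. The 8 genes have different roles. ImpL2 is a secreted immunoglobulin-like protein that binds insulin-like peptides and lowers insulin signalling. Ptp52F is a receptor tyrosine phosphatase known from axon guidance. CenG1A activates the GTPase activity of Arf proteins, and Dgp-1 is a GTPase related to translation factors. Picot is a predicted phosphate co-transporter of the membrane, Cyp6a20 a cytochrome P450 known for its part in male aggression, and CG6330 a predicted uridine phosphorylase. No role is given here for CG3348.

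Values are log ratios of a sample, labelled with Cy5, to one Cy3 reference pool of S2 cells and embryos, read as log2. An array held 3755 to 6696 values, and array medians ran from -0.81 to 0.24. The labels of the replicate letters A, B and C do not say that they are separate cultures, so a p-value rests on a spread between arrays that may be technical only. The IRE1 probe did not go down on the arrays labelled IRE1 RNAi. It stood there between 0.13 and 2.55, with a median of 2.06, against -1.08 to 0.41 and a median of -0.49 on the other 12 arrays, so these arrays are called "labelled IRE1 RNAi" throughout. Both XBP-1 probes had lower medians on the 6 XBP-1 RNAi arrays (-0.985 and -0.94) than on the other 12 (-0.655 and -0.405), with overlapping ranges. Of 9 blood cell marker probes, 9 lay below the median probe, as did 8 of 9 markers of tissues foreign to S2 cells. Each value is a ratio to a pool that itself holds S2 RNA, so the markers show no absolute level. With DTT, 0 of the tested markers rose in any arm, and 2 of 7 blood cell markers and 2 of the foreign ones fell in each arm. Their part in the results below was not tested.

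With DTT, all 8 genes stood higher in each of the 3 arms, and in no arm did the arrays with and without DTT overlap for any of them. In limma with Benjamini-Hochberg adjustment, 8 of 8 passed in the control arm, where 7.25% of 5935 probes were called higher. Under XBP-1 RNAi 8 of 8 passed against 4.53% of 5649 probes, and on the arrays labelled IRE1 RNAi 8 of 8 passed against 3.48% of 5833. The groups lay wholly apart, with DTT above, for 15.2%, 12% and 6.6% of all probes in the same order. Nothing is read from these counts, because the effects chose the genes. Over all probes 430 were called higher and 264 lower in control (704 and 717 after centring each array on its median), 256 and 665 under XBP-1 RNAi (825 and 933), and 203 and 610 on the arrays labelled IRE1 RNAi (519 and 802). In RNA from a whole culture, more cells that make an mRNA and more of it per cell cannot be told apart. The median effect of the 8 was 3.85 in control, 3.97 under XBP-1 RNAi and 3.95 on the arrays labelled IRE1 RNAi, on the log2 scale, against medians of all probes of 0.15, -0.08 and -0.24. Centring moved these medians of all probes to 0.03, 0.12 and 0.015, and the medians of the 8 genes to 3.72, 4.21 and 4.23. The gap between the lowest array with DTT and the highest without it ran from 0.74 (ImpL2) to 3.53 (Dgp-1) in control, from 2.48 to 4.12 under XBP-1 RNAi and from 1.66 to 5.62 on the arrays labelled IRE1 RNAi.

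**Figure D1:**
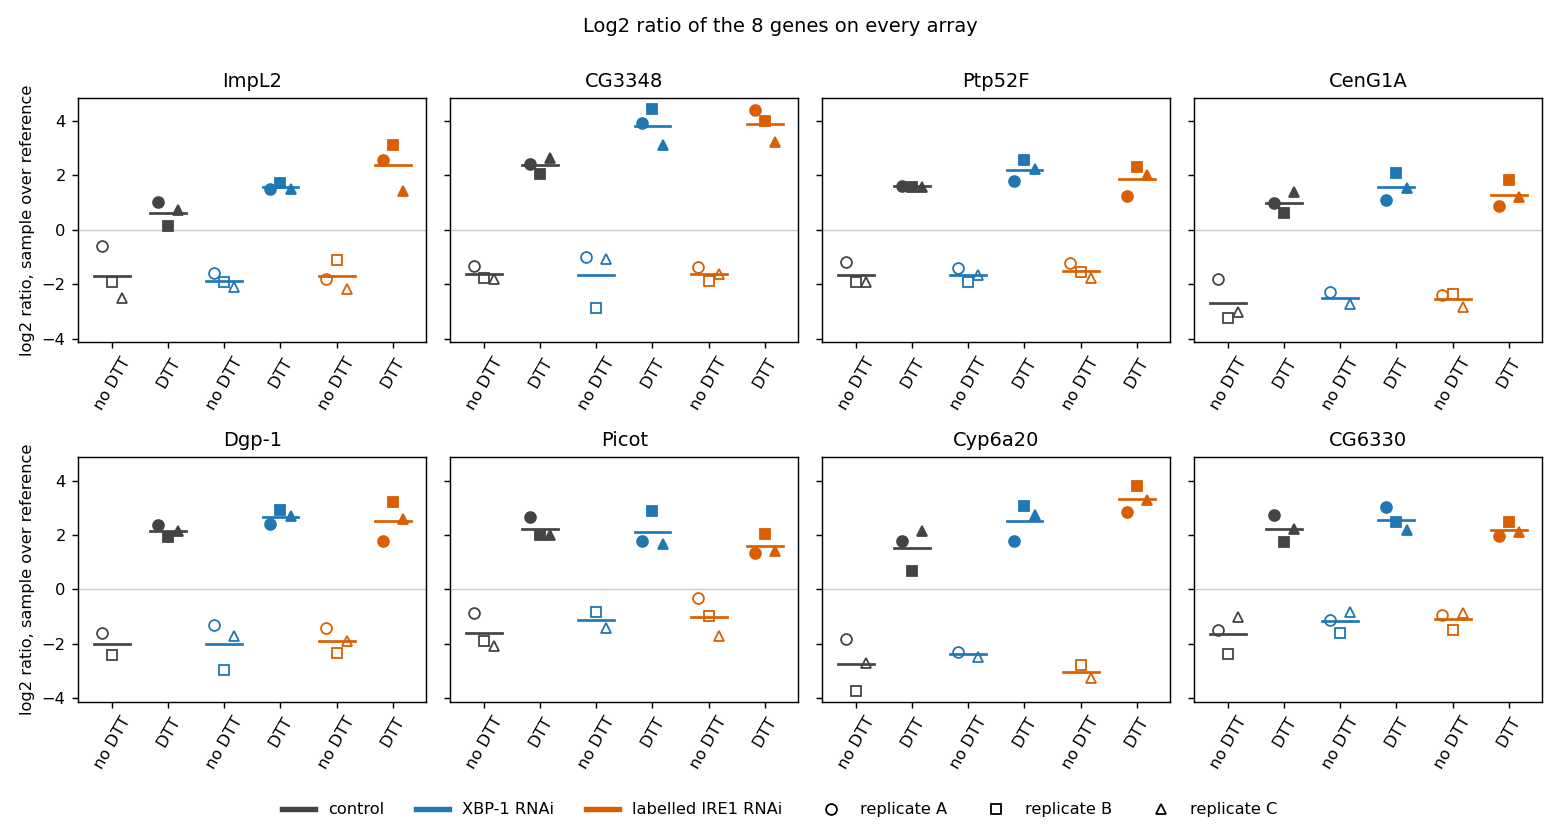
Log2 ratio, sample over reference, of each gene on every array (y axis), by group (x axis). Open symbols are arrays without DTT, filled symbols arrays with DTT, shapes are replicate letters and bars are group means. All arrays with DTT sit above all arrays without it, for each gene and within each arm.

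ImpL2 had the smallest of the 8 effects in control and larger ones in both RNAi arms. Its log2 ratios in control were -0.61, -1.91 and -2.52 without DTT (letters A, B and C) and 1.03, 0.13 and 0.74 with it. Replicate A without DTT was the high one, and it left the narrow gap of 0.74 between the groups. Under XBP-1 RNAi the values were -1.59, -1.92 and -2.09 without DTT and 1.5, 1.72 and 1.52 with it. Arrays labelled IRE1 RNAi held -1.8, -1.1 and -2.19 without DTT and 2.56, 3.13 and 1.44 with it. Without DTT the 3 arms thus stood together (means of -1.68, -1.87 and -1.70), while with DTT the arrays of both RNAi arms all lay above all control arrays. The DTT effect was 2.31 ± 0.44 (SE) in control, 3.45 ± 0.43 under XBP-1 RNAi and 4.07 ± 0.43 on the arrays labelled IRE1 RNAi, which is 4.97-fold, 10.9-fold and 16.8-fold.

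CG3348 followed the same order of groups with less spread in control. In control cells it read -1.34, -1.77 and -1.79 without DTT and 2.43, 2.06 and 2.64 with it. The XBP-1 RNAi arrays read -0.99, -2.88 and -1.07 without DTT and 3.91, 4.45 and 3.13 with it. Replicate B without DTT was the low one there, and without it the effect under XBP-1 RNAi was 4.86 in place of 5.48. The arrays labelled IRE1 RNAi read -1.38, -1.87 and -1.62 without DTT and 4.39, 4.01 and 3.23 with it. Every RNAi array with DTT lay above every control array with DTT. The effect was 4.01 ± 0.43 in control, or 16.1-fold, 5.48 ± 0.42 under XBP-1 RNAi, or 44.5-fold, and 5.50 ± 0.43 on the arrays labelled IRE1 RNAi, or 45.3-fold.

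Ptp52F varied least among arrays of a group, with a within-group SD of 0.36. Control values were -1.17, -1.93 and -1.91 without DTT and 1.62, 1.59 and 1.58 with it. In XBP-1 RNAi cells they were -1.39, -1.93 and -1.65, and 1.8, 2.58 and 2.25 with DTT. Labelled IRE1 RNAi, the arrays gave -1.2, -1.55 and -1.77, and 1.26, 2.31 and 2.01 with DTT. The XBP-1 RNAi arrays with DTT lay above the control arrays with DTT as deposited, though not after centring; the arrays labelled IRE1 RNAi overlapped control. The effect of DTT was 3.27 ± 0.35, 3.87 ± 0.35 and 3.37 ± 0.35 in the 3 arms.

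CenG1A was among the lowest of the 8 without DTT, at -1.82, -3.25 and -3.03 in control, and rose to 0.97, 0.62 and 1.41. Under XBP-1 RNAi it read -2.29 and -2.72 without DTT (letter B is empty) and 1.09, 2.09 and 1.54 with it. Labelled IRE1 RNAi, arrays gave -2.4, -2.34 and -2.85, and 0.87, 1.82 and 1.2 with DTT. The arms overlapped one another both without and with DTT. Its effects were 3.70 ± 0.39, 4.08 ± 0.43 and 3.83 ± 0.39. A second probe of the same gene, numbered 7982, played no part in the choice. Its DTT effect in limma was 2.59 ± 0.38 in control (adjusted p = 1.8e-05), 2.57 ± 0.42 under XBP-1 RNAi (adjusted p = 7.01e-05) and 2.66 ± 0.38 on the arrays labelled IRE1 RNAi (adjusted p = 1.95e-05). On all arrays that measured it, values with DTT ran from 0.5 to 1.63 and values without it from -2.44 to -0.95. Both probes thus gave an effect of similar size in the 3 arms, and the second gave the smaller one. They were read on the same arrays, so the second is another measure of the same samples. The difference of its effect from control was -0.02 (95% interval -1.18 to 1.14) under XBP-1 RNAi and 0.07 (-1.03 to 1.16) on the arrays labelled IRE1 RNAi.

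Dgp-1 stood at -1.61 and -2.42 in control without DTT (letter C is empty) and at 2.38, 1.92 and 2.13 with it. Under XBP-1 RNAi it went from -1.32, -2.96 and -1.71 to 2.39, 2.91 and 2.71. Labelled IRE1 RNAi, arrays read -1.42, -2.35 and -1.89, and 1.78, 3.23 and 2.58 with DTT. The XBP-1 RNAi arrays with DTT lay just above the control arrays, 2.39 being their lowest value and 2.38 the highest of control. The effect was 4.16 ± 0.46 in control, 4.67 ± 0.41 under XBP-1 RNAi and 4.42 ± 0.41 on the arrays labelled IRE1 RNAi.

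On the values as deposited, Picot and CG6330 had smaller effects in both RNAi arms than in control, Picot by the larger amount. The control values of Picot were -0.85, -1.89 and -2.09 without DTT and 2.66, 2 and 1.99 with it. XBP-1 RNAi arrays gave -0.82 and -1.4 without DTT (letter A is empty) and 1.79, 2.9 and 1.66 with it. Arrays labelled IRE1 RNAi gave -0.31, -0.99 and -1.7 without DTT and 1.35, 2.02 and 1.43 with it. The arms overlapped in both states. From control to the arrays labelled IRE1 RNAi, the mean without DTT went from -1.61 ± 0.67 (SD, n = 3) to -1 ± 0.70 (SD, n = 3) and the mean with DTT from 2.22 ± 0.38 to 1.60 ± 0.37. The DTT effect was 3.83 ± 0.41 in control, 3.23 ± 0.46 under XBP-1 RNAi and 2.60 ± 0.41 on the arrays labelled IRE1 RNAi, or 14.2-fold, 9.36-fold and 6.06-fold.

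Cyp6a20 had the largest effect of all 5833 probes tested on the arrays labelled IRE1 RNAi. There it read -2.79 and -3.26 without DTT (letter A is empty) and 2.83, 3.79 and 3.3 with it, an effect of 6.33 ± 0.50 or 80.5-fold. In control cells it went from -1.83, -3.72 and -2.69 to 1.78, 0.67 and 2.13, an effect of 4.27 ± 0.45. Under XBP-1 RNAi it went from -2.29 and -2.47 (letter B is empty) to 1.79, 3.05 and 2.74, an effect of 4.91 ± 0.49. With DTT the arrays labelled IRE1 RNAi all lay above control and the XBP-1 RNAi arrays overlapped it. This gene also varied most among arrays of a group, with a within-group SD of 0.66 against a median of 0.44 over all probes.

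CG6330 stayed closest to a constant effect between control and XBP-1 RNAi. It read -1.49, -2.38 and -1.01 in control without DTT and 2.73, 1.76 and 2.22 with it. XBP-1 RNAi arrays read -1.11, -1.59 and -0.83, and 3.03, 2.48 and 2.19 with DTT. Arrays labelled IRE1 RNAi read -0.94, -1.49 and -0.85, and 1.98, 2.48 and 2.1 with DTT. As deposited, all 3 arms overlapped in either state, and the effects were 3.86 ± 0.38, 3.74 ± 0.37 and 3.28 ± 0.38. After centring, the effect under XBP-1 RNAi was not smaller: means went from -1.35 to 2.39 in control and from -1.11 to 2.82 there. With single arrays left out, the XBP-1 RNAi difference from control ran from -0.43 to 0.26. Centred arrays labelled IRE1 RNAi with DTT all lay above control, by 0.36 in their means.

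**Figure D2:**
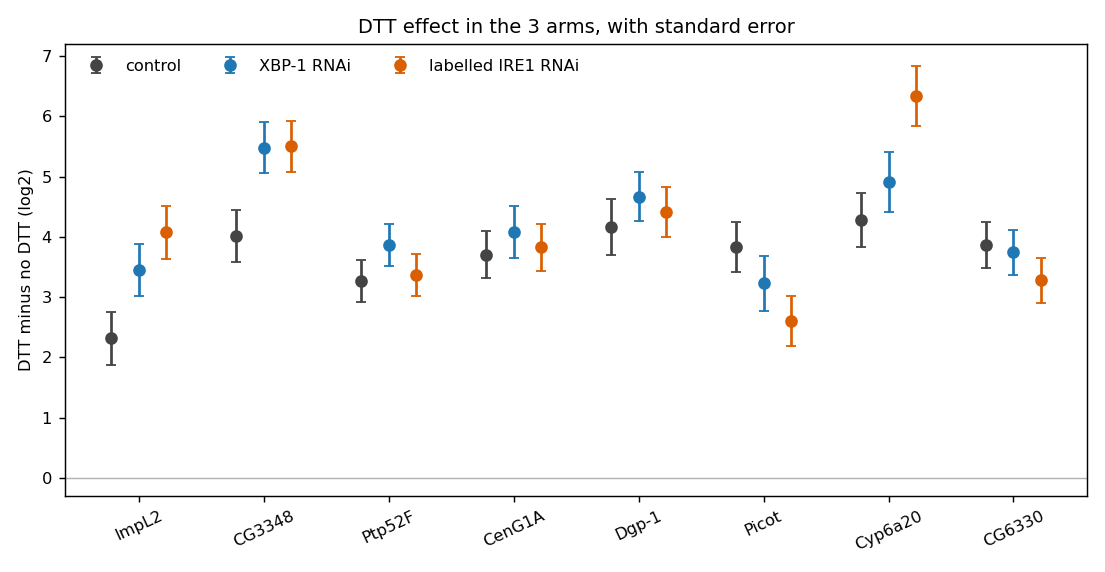
DTT effect (arrays with DTT minus arrays without, log2, y axis) of the 8 genes (x axis) in control, XBP-1 RNAi and labelled IRE1 RNAi cells. Points are limma estimates and bars standard errors; effects run from 2.31 for ImpL2 in control to 6.33 for Cyp6a20 on the arrays labelled IRE1 RNAi.

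The estimated differences of effect between arms varied from gene to gene, and the genes were not tested against one another. Given as a description, the effect under XBP-1 RNAi minus that in control ran from -0.60 (95% interval -1.86 to 0.66) for Picot to 1.47 (0.24 to 2.69) for CG3348, with a median of 0.55 against -0.28 over all probes. On the arrays labelled IRE1 RNAi the difference from control was 2.06 (0.69 to 3.42) for Cyp6a20, 1.76 (0.51 to 3.01) for ImpL2 and 1.49 (0.26 to 2.72) for CG3348. It was -1.23 (-2.42 to -0.04) for Picot and -0.58 (-1.67 to 0.50) for CG6330. Dgp-1 (0.26, -1.01 to 1.52), CenG1A (0.13, -0.997 to 1.25) and Ptp52F (0.10, -0.90 to 1.10) lay closest to 0. Their intervals reach to about 1 on either side, so these data do not show that their effects were equal. Single arrays moved these values: without replicate A of control without DTT, the difference of ImpL2 was 0.60 under XBP-1 RNAi and 1.225 on the arrays labelled IRE1 RNAi, and that of Cyp6a20 was 0.175 and 1.60. Without replicate B of XBP-1 RNAi without DTT, that of CG3348 under XBP-1 RNAi was 0.85. In limma 0 of 8 were called in either comparison, where 0.802% of 5483 and 0.0894% of 5594 probes were called. Of the 8, 1 and 4 had an unadjusted p under 0.05. The share of all probes under that unadjusted cutoff was not computed, so nothing is read from these counts. Centring moved the median of all probes from -0.28 to 0.03 and from -0.44 to -0.07. With it 2 of the 8, Cyp6a20 and ImpL2, were called for the arrays labelled IRE1 RNAi, where 64 of 5594 probes were called. Under the replicate block without centring, whose fit shares 1 spread estimate over all probes, 3 of 8 were called for those arrays, CG3348 being the third. Over all probes 153 of 5594 were called in that fit. Centring with the block, where the spread is not shared in that way, also called 3 of 8, and 272 of 5594 probes. Quantile normalization moved the differences of the genes given here downward. For the arrays labelled IRE1 RNAi 0 of 8 were called higher and 1 lower, where 85 of 5594 probes were called. The 1 was Picot at -1.48 (adjusted p = 0.0430 in limma), larger in size than the -1.23 as deposited. Of the 8 genes 4 lay above 0 and 4 below, with a median of -0.09. Cyp6a20 then stood at 1.13, ImpL2 at 1.28 and CG3348 at 0.35, while Dgp-1 (-0.55) and Ptp52F (-0.20) changed sign. Under XBP-1 RNAi the same scaling gave 0 calls among the 8, where 107 of 5483 probes were called. The median of the 8 was 0.08 and values ran from -1.28 (Picot) to 0.92 (ImpL2), with CG3348 at 0.53 and Dgp-1 at -0.31.

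As deposited, the arms differed more with DTT than without it for the genes other than Picot and CG6330. Without DTT, in each RNAi arm 0 of 8 genes lay wholly outside the control arrays, where 9.93% of probes did so under XBP-1 RNAi and 3.65% on the arrays labelled IRE1 RNAi. The differences of the means from control were then between -0.19 and 0.50 under XBP-1 RNAi and between -0.28 and 0.61 on the arrays labelled IRE1 RNAi. With DTT, 4 of 8 lay wholly above control under XBP-1 RNAi (ImpL2, CG3348, Ptp52F and Dgp-1), against 3.14% of probes. On the arrays labelled IRE1 RNAi 3 of 8 did so (Cyp6a20, ImpL2 and CG3348), against 1.93%. Those 3 stood 1.78, 1.74 and 1.50 above control in their means with DTT. Over all 8, differences with DTT ran from -0.10 to 1.45 under XBP-1 RNAi and from -0.62 to 1.78 on the arrays labelled IRE1 RNAi. CG6330 stood closer to control with DTT than without it in both arms (0.33 against 0.45, and -0.05 against 0.53). Picot did so under XBP-1 RNAi (-0.10 against 0.50), and its distance was alike on the arrays labelled IRE1 RNAi (-0.62 against 0.61). After centring, the counts with DTT were 3 and 5 of 8, and Ptp52F lay below control without DTT under XBP-1 RNAi, by 0.20. Shares of all probes lying apart were not computed after centring, so these counts have no background to be read against. The level with DTT enters the effects that chose the genes, so these counts too are a description.

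The level was also averaged over both DTT states. With equal numbers of arrays the error of this average is uncorrelated with that of the DTT effects, and nearly so for the 4 genes with an empty value. It is still computed from the same arrays, those with DTT included, so its values are no independent support for the effects that chose the genes. Under XBP-1 RNAi 8 of 8 genes stood above control in this average, by 0.20 (Picot) to 0.72 (CG3348), with a median of 0.38 against 0.06 over all probes. None passed in limma (adjusted p = 1 for each), where 0.182% of 5483 probes were called, 0 higher and 10 lower (4 and 69 after centring). Of the 8, 2 had an unadjusted p under 0.05, CG3348 (0.72 ± 0.30) and Cyp6a20 (0.68 ± 0.33). The share of all probes under that unadjusted cutoff was not computed. The 95% interval of CG3348 was 0.11 to 1.33 and that of Cyp6a20 0.005 to 1.36, so the arrays do not show that the level was the same.

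On the arrays labelled IRE1 RNAi 7 of 8 genes stood above control in the average, with a median of 0.25 against -0.19 over all probes. Picot, at -0.003, was the exception, and it stood at 0.21 after centring. None passed in limma on the values as deposited, where 0.375% of 5594 probes were called, 10 higher and 11 lower (64 and 22 after centring). An unadjusted p under 0.05 was found for 3 of the 8, and the share of all probes under that cutoff was not computed. ImpL2 stood highest, at 0.86 ± 0.31 (adjusted p = 0.438), followed by CG3348 at 0.76 ± 0.30 (adjusted p = 0.621) and Cyp6a20 at 0.75 ± 0.33 (adjusted p = 0.721). ImpL2 passed in limma with the replicate letter as a block (adjusted p = 0.0137), with centring (1.08 ± 0.23, adjusted p = 0.0280) and with both (adjusted p = 0.00279). CG3348 passed with the block (adjusted p = 0.0491) and with block and centring (adjusted p = 0.0132), and Cyp6a20 with block and centring together (adjusted p = 0.0224). Over all probes 109 of 5594 were called with the block, 86 with centring and 347 with both. For these 3 genes the average carries the higher level with DTT: without DTT their differences from control were -0.02, 0.01 and -0.28. That level enters the effects that chose the genes, so these calls are no separate test. The block fit without centring shares 1 spread estimate over all probes. The within-group SDs of the 3 genes (0.62, 0.60 and 0.66) exceed the median probe's 0.44, so their p-values in that fit may be too small.

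**Figure D3:**
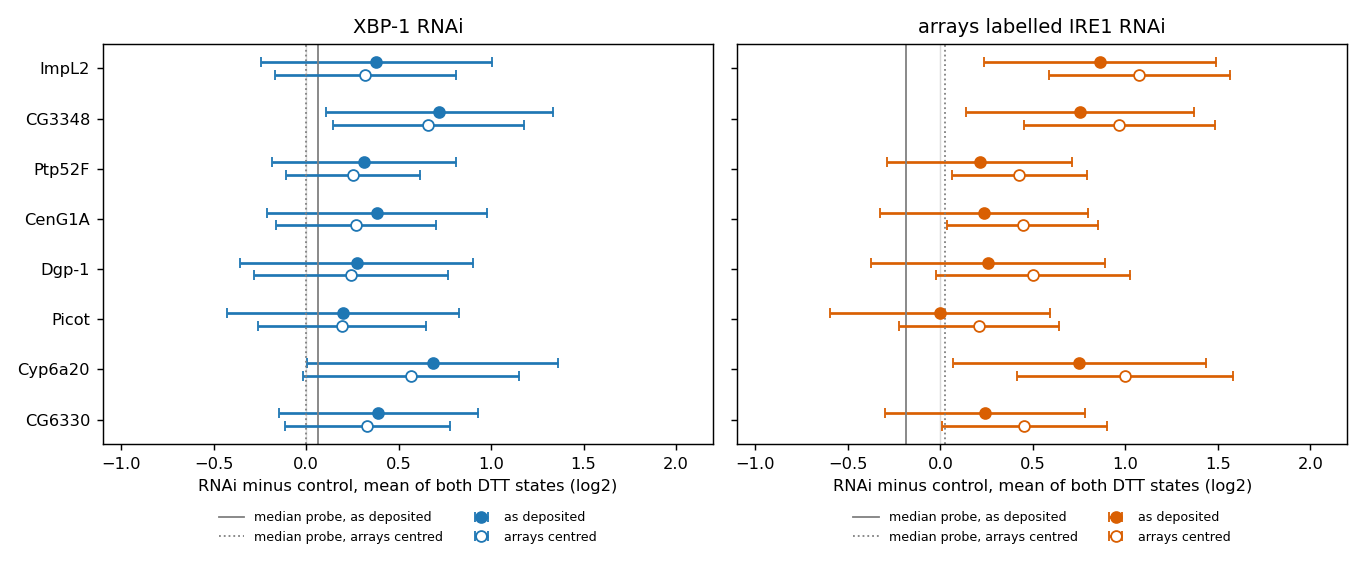
Difference of each RNAi arm from control, averaged over both DTT states (x axis, log2), for the 8 genes (y axis). Filled points are values as deposited, open points values after centring, bars are 95% intervals from limma and vertical lines the median probe. ImpL2, CG3348 and Cyp6a20 stand farthest above the median probe on the arrays labelled IRE1 RNAi.

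Across all arrays the 8 genes moved together, with pairwise r between 0.89 and 0.99 over the 28 pairs after centring (at least 15 shared arrays). All pairs share the split between arrays with and without DTT, which sets these values. Once group means were removed, r ran from -0.63 to 0.84 with a median of 0.15, against 0.03 over all pairs of probes with a value on every array, and 15 of 28 were above 0. Within groups the highest were CenG1A with Cyp6a20 (0.84, 16 arrays), CenG1A with Ptp52F (0.68, 17 arrays) and Dgp-1 with Ptp52F (0.68, 17 arrays). CG6330 went the other way from ImpL2 and from Picot (both -0.63), but stood at 0.02 and 0.07 with them in the values as deposited, where the median pair of the 8 genes was at 0.48 and that of all probe pairs at 0.52. Arrays of a pair share probe depth and labelling, and these values are descriptions.

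**Figure D4:**
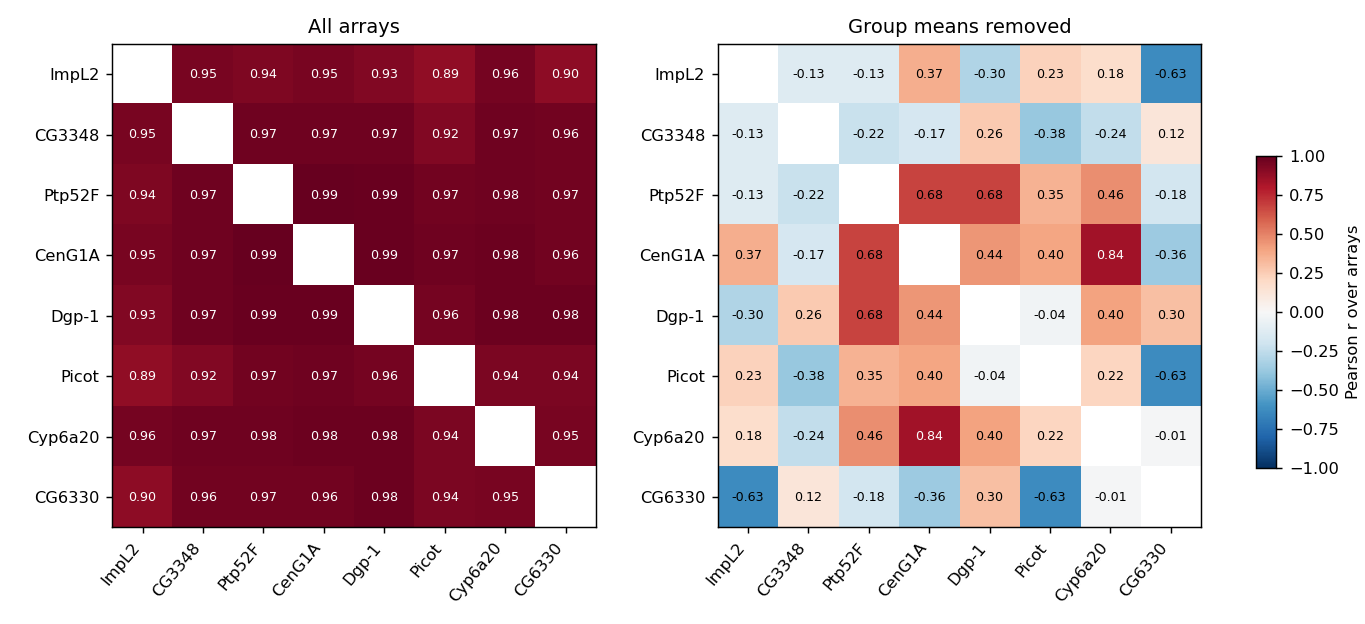
Pearson r of each pair of genes over arrays centred on their medians, on all arrays (left) and after the mean of each group was removed (right). The left panel lies between 0.89 and 0.99, and the right between -0.63 and 0.84.

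The probes of other genes most like each member were found by Pearson r over all arrays after centring. These r too are set by the split between arrays with and without DTT. Ptp52F was most like CenG1A (0.99, 17 arrays), Dgp-1 (0.99) and JhI-26, a gene named for its induction by juvenile hormone (0.99, 18 arrays). CenG1A had Ptp52F, JhI-26 and PolI, a DNA repair polymerase, as its 3. For Dgp-1 they were Ptp52F, the second CenG1A probe and prage. Cyp6a20 was most like both CenG1A probes and PolI. Among these 4 genes the least alike pair was Cyp6a20 with Ptp52F (0.976). Dgp-1 with CG6330 was closer than that (0.979), so these 4 are not a group apart. For ImpL2, CG3348, Picot and CG6330 the 3 probes all lay outside the 8. ImpL2 was most like daw, an activin-type ligand (0.98, 15 arrays), hry, a transcriptional repressor (0.97, 18 arrays), and oys, an acyltransferase (0.97). CG3348 shared daw (0.99, 15 arrays) and had the glutathione transferases GstE8 and GstE7 (both 0.98). Picot was most like RNaseZ, which matures tRNA ends (0.99, 16 arrays), Ldh, the lactate dehydrogenase (0.98), and Lon, a mitochondrial protease (0.97). CG6330 was most like NC2alpha (0.99), an unnamed probe (0.99) and GstE8 (0.98). With group means removed, these r ranged from 0.15 (CG3348 with daw) to 0.86 (Cyp6a20 with PolI).

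Genes next to the members in the Release 6 annotation mostly did not pass. Of 13 tested neighbours within 5 genes, 1 rose and 0 fell in control, 1 moved each way under XBP-1 RNAi, and 2 rose and 0 fell on the arrays labelled IRE1 RNAi. Their median effects were 0.16, -0.04 and -0.15. Over all probes, 7.25%, 4.53% and 3.48% were called higher in the same order. With the replicate block these were 694 of 5918, 493 of 5644 and 307 of 5815 probes. Whether the neighbours or any gene list below exceeded these shares was not tested. CG10916, 2 genes from Dgp-1, rose in each arm, by 2.16 ± 0.43 in control (limma, adjusted p = 0.000891), 2.04 ± 0.38 under XBP-1 RNAi (adjusted p = 0.000385) and 1.76 ± 0.47 on the arrays labelled IRE1 RNAi (adjusted p = 0.0113). Cyp6a9, the P450 gene beside Cyp6a20, rose by 2.41 ± 0.44 on the arrays labelled IRE1 RNAi (adjusted p = 0.000542) and measured 0.55 ± 0.40 in control (adjusted p = 0.481). The difference of these 2 effects did not pass (1.86 ± 0.59, adjusted p = 0.281). Hmu, beside CG3348, fell by 1.48 ± 0.38 under XBP-1 RNAi (adjusted p = 0.00547). The members themselves lie apart: 4 of them share an arm in the order Cyp6a20, Ptp52F, Picot and Dgp-1, with 178, 94 and 321 genes between them, and CG6330 and CG3348 share another with 69 between.

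Relatives of Cyp6a20 were examined among the cytochrome P450 genes, enzymes that oxidise hormones and toxins. Of 33 other P450 genes tested in control, 4 rose and 0 fell, with a median effect of 0.29 against 0.15 over all probes. Cyp6a17 (3.79 ± 0.47) and Cyp6a23 (3.58 ± 0.46) rose most, followed by Cyp6d4 (1.54 ± 0.45) and Cyp28d1 (1.28 ± 0.34). On the arrays labelled IRE1 RNAi 5 of 34 rose and 0 fell, Cyp6a17 by 4.76 ± 0.47, Cyp6a23 by 4.54 ± 0.46 and Cyp6a9 as above. Under XBP-1 RNAi 2 of 30 rose, Cyp28d1 by 1.60 ± 0.33 and Cyp6d4 by 1.60 ± 0.49, and Cyp4g1 fell by 1.43 ± 0.47. Cyp6a17 and Cyp6a23 had too few values to be tested there. With the replicate block 5 of 29 rose there, Cyp6a8, Cyp6a9 and Cyp28a5 being added. P450 genes of this group are alike in sequence, and sharing of signal between their probes was not tested.

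For Dgp-1, the comparison set was a list of translation and ribosome rescue genes, GTPases and others such as eRF1 and pelo. Of 9 others tested in control, 2 rose and 0 fell. CG2017 rose by 3.06 ± 0.33 in control, 2.88 ± 0.33 under XBP-1 RNAi and 2.90 ± 0.33 on the arrays labelled IRE1 RNAi (limma, adjusted p between 2.11e-07 and 3.58e-07). HBS1, which acts in ribosome rescue, rose by 1.31 ± 0.37 in control, while its values in the RNAi arms, 0.85 ± 0.37 and 0.60 ± 0.37, did not pass. In both RNAi arms 1 of 9 rose, CG2017. With the replicate block HBS1 also passed under XBP-1 RNAi, giving 2 of 9 there, and eEF1alpha1, an elongation factor, passed in control, giving 3 of 9.

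Around ImpL2, genes of insulin and TOR signalling were counted. In control 2 of 15 others rose and 0 fell. Thor, a repressor of translation held back by TOR, rose by 2.73 ± 0.42 in control, 4.27 ± 0.42 under XBP-1 RNAi and 3.53 ± 0.42 on the arrays labelled IRE1 RNAi. The TOR inhibitor scyl rose by 2.55 ± 0.53, 3.28 ± 0.52 and 2.65 ± 0.53. Its relative chrb rose under XBP-1 RNAi, by 1.36 ± 0.47, which made 3 of 13 there, against 2 of 13 on the arrays labelled IRE1 RNAi. None fell in the RNAi arms, and no difference of effect between arms passed in this list. With the replicate block 4 rose in each arm, Thor, scyl and chrb each time, with Pdk1 in control and InR, the insulin receptor, in both RNAi arms.

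Among transporters listed beside Picot as SLC17-type, MFS3 rose in each arm, by 2.99 ± 0.48, 3.62 ± 0.43 and 3.79 ± 0.43, 1 of 7 others each time. Whether each of them belongs to the family of Picot was not tested. MFS15 fell by 1.69 ± 0.41 and MFS16 by 1.68 ± 0.46 under XBP-1 RNAi, and 0 fell in control or on the arrays labelled IRE1 RNAi; with the replicate block MFS16 fell in control as well. No other protein tyrosine phosphatase rose beside Ptp52F: 0 of 10 in control, 0 of 8 under XBP-1 RNAi and 0 of 10 on the arrays labelled IRE1 RNAi. Ptp10D, another receptor phosphatase, fell by 1.53 ± 0.47 in control, and Ptp4E passed upward under XBP-1 RNAi with the replicate block. Of 13, 12 and 11 other genes of pyrimidine synthesis and salvage, the pathway of CG6330, 0 rose in any arm. CRMP fell in control, by 1.46 ± 0.48. The deoxynucleoside kinase gene dnk fell by 1.50 ± 0.38 under XBP-1 RNAi and by 1.67 ± 0.38 on the arrays labelled IRE1 RNAi, and r-l and CG3788 fell under XBP-1 RNAi, by 1.40 ± 0.43 and 1.21 ± 0.40. With the replicate block 2, 1 and 1 genes of this list rose and 1, 4 and 4 fell. Genes of chitin binding, synthesis and breakdown, set beside CG3348, gave 0 calls in either direction among 6, 5 and 7 tested.

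Arf GTPases and their regulators, set beside CenG1A, held a gene of the opposite pattern. ArfGAP3, an activator of Arf GTPase activity in Golgi traffic, rose in control by 1.72 ± 0.35 (limma, adjusted p = 0.000952), the only 1 of 10 others to pass there. It measured -0.26 ± 0.35 under XBP-1 RNAi (adjusted p = 0.698) and 0.16 ± 0.35 on the arrays labelled IRE1 RNAi (adjusted p = 0.87), and 0 of 10 passed in those arms. The difference from control was -1.98 ± 0.49 under XBP-1 RNAi (adjusted p = 0.0467). For the arrays labelled IRE1 RNAi it was -1.56 ± 0.49 and did not pass (adjusted p = 0.281); the average over both DTT states passed there, at -1.08 ± 0.25 (adjusted p = 0.0433). With the replicate block 2 rose and 1 fell in control, 2 rose under XBP-1 RNAi, and 1 rose and 1 fell on the arrays labelled IRE1 RNAi. CenG1A, in the same list, kept effects of 4.08 and 3.83 in the RNAi arms.

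**Figure D5:**
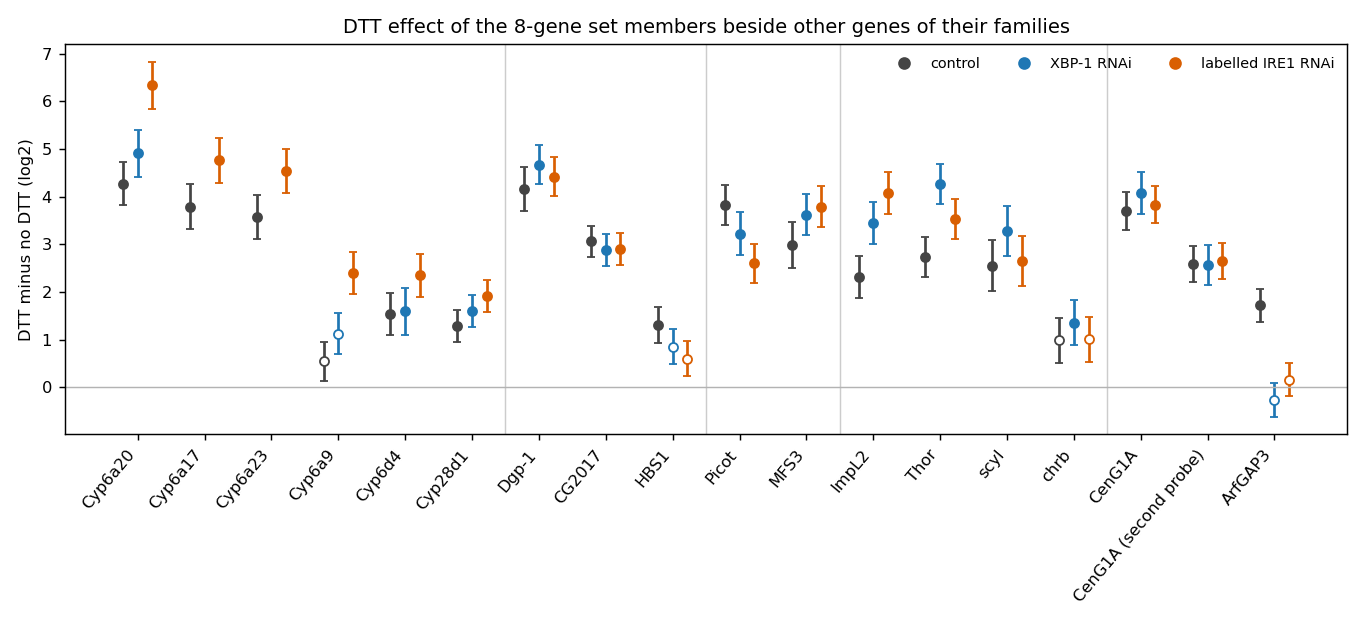
DTT effect (log2, y axis) with its standard error for members and other genes of their lists (x axis), by arm. Filled points have an adjusted p under 0.05 in limma, which for the members is a description. ArfGAP3 rises in control and stands near 0 in both RNAi arms, while CG2017 and MFS3 rise in every arm.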

How the data were processed

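The deposited values are log ratios of the Cy5 sample (16 µg of total RNA) to the common Cy3 reference, here read as log2 with the sample over the reference; the base and the direction are not given in the sources used here. Per the labels' protocols, the authors normalized in the NOMAD database and removed spots that were dim, inconsistent within the spot or visibly defective. Of the values, 18.8% are empty and 2737 of 7257 probes are complete. Same-group arrays correlated at 0.639 to 0.876, and at most 1.27% of values were identical. The number of arrays limits the precision.

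The probes' numbers were taken for CG numbers and named through RefSeq Release 6. Of the 7257 probes, 6683 matched by locus tag, 457 by synonym, 107 had several matches and 10 none; 99.9% of the numbers are CG numbers, against 40.9% of whole numbers in the range. The platform's symbols, which matched the CG gene for 1 of 4656 probes, were not used.

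A limma model (3.58.1, R 4.3.3) with 6 group means was fitted on all 18 arrays to the values as deposited. A probe entered a contrast if each of its groups held 2 or more values, and p-values were adjusted by Benjamini-Hochberg over all probes tested, with a threshold of 0.05. The 8 genes, the gene lists and the tests were chosen with earlier results of these data known. The genes named are the 8 members, the 3 probes most like each over at least 15 shared arrays, the nearest tested neighbours within 5 genes, and list genes that passed. Alternatives were centring on the array median, quantile normalization, the replicate letter as a block, centring with the block, complete probes only, and leaving out each array in turn. The fit was also tested on simulated data. Same-letter arrays deviated together: r was over 0.1 for 44 of 45 pairs, and 18 of 18 arrays correlated best with their own letter. The pairing comes from these correlations and not from the labels. The main fit took no account of this pairing, and the block entered only as an alternative, for every contrast. The exception (0.0115) paired control without DTT and XBP-1 RNAi with DTT. Promoter and protein sequences of the genes were not used here.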

Additional observations from a re-analysis of the deposited data

Results flagged for a closer look

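ArfGAP3, an Arf GTPase activator in the family of CenG1A, differed between arms in its DTT effect by a test of the difference. The effect under XBP-1 RNAi minus that in control was -1.9833 on the log2 scale (SE 0.49, limma adjusted p = 0.0467), from 1.72 in control and -0.26 under XBP-1 RNAi. Over 17 alternatives the difference lay between -2.36 and -1.67 and passed in 8. It missed the threshold without 9 of the 12 arrays, each left out alone, with a largest adjusted p of 0.240.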

How the results depend on the processing

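The DTT effects stayed called higher in each arm under every alternative in which a gene was tested (complete probes hold only ImpL2, Ptp52F, CG3348 and CG6330), between 1.89 and 4.73 in control, 2.67 and 5.83 under XBP-1 RNAi, and 2.25 and 6.62 on the arrays labelled IRE1 RNAi. These effects chose the genes and the alternatives reuse the same arrays, so this too is a description. The average level under XBP-1 RNAi passed for 0 of 4 genes in complete probes and 0 of 8 under every other alternative. That on the arrays labelled IRE1 RNAi passed for ImpL2, CG3348 and Cyp6a20 under the centred and blocked fits given above, and for 0 of 8 genes with quantile normalization or any single array left out and 0 of 4 in complete probes. For Picot this average changed sign from -0.003 to 0.2083 after centring, alone or with the block, and ranged from -0.18 to 0.19 with single arrays left out. The cause was not tested.

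Counts of probes called rose with scaling and with the block, whose fit without centring shares 1 spread estimate over all probes. For the average level under XBP-1 RNAi they were 10 as deposited, 73 centred, 77 quantile normalized, 67 with the replicate block, 200 centred with the block, 16 in complete probes and 0 to 23 with 1 array left out. On the arrays labelled IRE1 RNAi they were 21, 86, 28, 109, 347, 29 and 1 to 22 in the same order. The DTT effect gave 694, 1421, 1696, 1164, 2011, 491 and 447 to 697 in control, 921, 1758, 1566, 1504, 2546, 630 and 520 to 941 under XBP-1 RNAi, and 813, 1321, 1278, 1305, 1872, 663 and 454 to 715 on the arrays labelled IRE1 RNAi. The difference of DTT effects gave 44, 82, 107, 196, 392, 49 and 0 to 90 for XBP-1 RNAi, and 5, 64, 85, 153, 272, 17 and 0 to 9 for the arrays labelled IRE1 RNAi.

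In XBP-1 comparisons with control the letters pair less surely. The blocked difference of DTT effects called CG3348, where 196 of 5483 probes were called. With centring it called ImpL2 too, where 392 of 5483 probes were called. CG2017, MFS3, Thor, scyl, Cyp6a17, Cyp6a23 and the second CenG1A probe kept their calls under every alternative. With array C of the DTT-treated XBP-1 RNAi cells left out, MFS15, MFS16, dnk, r-l, CG3788 and Cyp4g1 missed the threshold under XBP-1 RNAi (largest adjusted p over their alternatives 0.0581 for dnk and 0.408 for Cyp4g1). With single control arrays left out, Cyp28d1, Cyp6d4, CRMP, Ptp10D and HBS1 missed it in control in 2 to 4 cases each (largest adjusted p 0.067 for Cyp28d1 and 0.527 for CRMP). Cyp6d4 and chrb missed it under XBP-1 RNAi in 3 of 10 and 6 of 11 alternatives. CG10916 missed it without replicate C without DTT or replicate B with DTT of the arrays labelled IRE1 RNAi (largest adjusted p 0.0806). The average level of ArfGAP3 on those arrays passed in 5 of 17 alternatives. Signal over background was not analysed here, beyond the empty values.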
